A study of Mus musculus with 48 samples.

Results

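Of the 12096 cells that carry a deposited cell type in this mouse single-cell RNA sequencing study, 170 were labelled neutrophils, and these 170 cells are described here. They were taken by their deposited label alone, from all organs, out of 13240 cells in the count table, of which 1144 had no cell type. The same annotation holds a separate label of granulocytes with 1207 cells, and the neutrophil label was compared across genes with granulocyte-labelled cells of the same sample. All 170 cells formed 1 cluster that the reference-based column of the annotation left without a cell type, under the name Unknown16, and the study named the cluster from 6 marker genes. Seq-Well, in which cells settle into wells that each hold 1 barcoded bead and transcripts are counted as unique molecular identifiers (UMIs), was run on joint, lung, muscle, skin, and spleen. Mice were young adult male DBA1/J animals. In 6 mice (S1, S2, S3, S5, S6, and S8), collagen-induced arthritis (CIA), a model of rheumatoid arthritis, was raised with 100 µg bovine type II collagen in complete Freund's adjuvant and a booster of the same dose in incomplete adjuvant on day 20, and 4 healthy mice (H3, H4, H6, and H7) received phosphate-buffered saline. Labelled arthritis scores were 8 in S1, S2, and S3, 4 to 5 in S5, 3 to 4 in S6, and 2 to 3 in S8. Joint samples came from 5 CIA and 3 healthy mice and the other organs from 6 CIA and 4 healthy mice, 48 samples in all. Tissue had been cryopreserved and was then digested with enzymes, except spleen, which was strained, and 1 sample is 1 organ of 1 mouse.

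Neutrophils are short-lived phagocytes of the blood that are made in bone marrow and enter inflamed tissue within hours. During maturation they fill primary, specific, and gelatinase granules in turn, and transcripts of early granule proteins fall as the cell ages. S100a8 and S100a9 form calprotectin, a calcium- and zinc-binding complex that makes up much of the neutrophil cytosol and is used as a marker of joint inflammation.

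The samples held between 17748 and 1645730 UMIs in annotated cells, with a median of 124586. A neutrophil-labelled cell had a median of 725 UMIs (range 416 to 4184) from a median of 396 genes (range 219 to 1802). Of the cell barcodes, 59 occurred in more than 1 library, and 2 neutrophil-labelled cells carried such a barcode. Haemoglobin transcripts took over 5% of the UMIs in 11 of the 170 cells and up to 81.6% in 1 cell, and 7 of the 11 cells came from muscle of H7. Red cells were lysed in the muscle samples of H6, H7, and S6 but not in the joint of S5. Cells of Joint S5 that were labelled T cells, used below as cells that should lack neutrophil genes, held only 40.5 CPM (UMIs of a gene per 1000000 UMIs of the summed cells) of the 5 genes *Cd3d*, *Cd3e*, *Cd3g*, *Trac*, and *Trbc2*, against 456 to 1785 CPM in the T cells of the 3 muscle samples used, so the label of that group went against its defining genes.

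The cells came from few libraries. Muscle held 127 of the 170 cells (74.7%), joint 33 (19.4%), spleen 7 (4.12%), lung 3 (1.76%), and skin 0. The muscle figure rests on the library of muscle of S6, without which, a count added after the data were seen, muscle held 41 of 84 cells (48.8%). Only 17 of the 48 samples and 8 of the 10 mice held any such cell, and 9 of these samples held exactly 1. Muscle of CIA mouse S6 held 86 cells, 50.6% of all, joint of CIA mouse S5 held 29, and muscle of healthy mice H7 and H6 held 20 and 15. These 4 samples, the only ones with at least 5 cells, gave 150 cells (88.2%), and all 4 have the ending CIA in their titles, in place of 2CIA, which the labels do not explain and which is treated here as the name of 1 experiment. The other 13 samples held 20 cells together.

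As a share of annotated cells, the label took 4.32% of Muscle S6 (exact binomial 95% interval 3.47 to 5.31, 86 of 1989 cells), 4.45% of Muscle H7 (2.74 to 6.80), 4.05% of Muscle H6 (2.29 to 6.60), and 3.04% of Joint S5 (2.04 to 4.33). These intervals, like all intervals and limits here, cover counting error only. The 4 shares of annotated cells lay close together, but 1492 of the 1989 cells of Muscle S6 were labelled myocytes. Among lymphoid and myeloid labels alone (labels of blood origin), the neutrophil label took 21.0% in Muscle S6. It took 5.76% in Muscle H7, 4.76% in Muscle H6, and 4.16% in Joint S5. The balance between both granulocytic labels differed as well. Neutrophil-labelled cells made up 96.6% of the cells with either label in Muscle S6, which held 3 granulocyte-labelled cells, but 21.5% in Muscle H7, 20.3% in Muscle H6, and 5.6% in Joint S5, which held 489. In spleen of S2 the value was 2.00%, with 147 granulocyte-labelled cells, and in joint of S1 it was 1.85%, with 159.

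**Figure D1:**
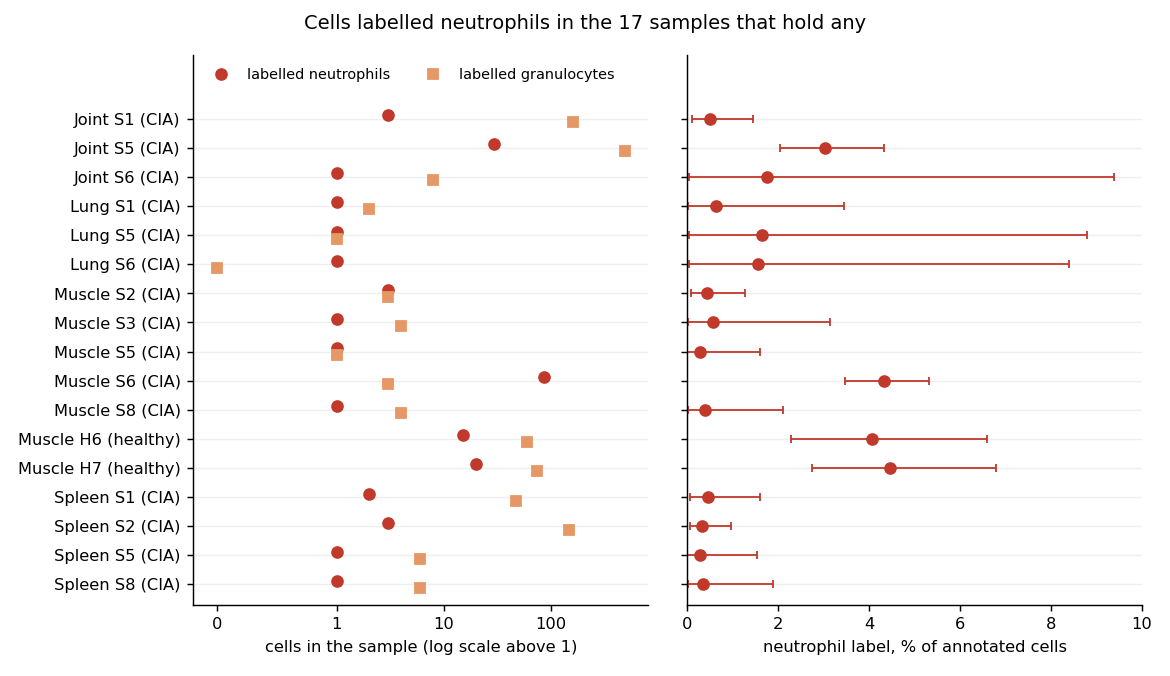
Cells per sample for the 17 samples that hold any neutrophil-labelled cell. The left panel gives the number of neutrophil-labelled (circles) and granulocyte-labelled (squares) cells on a scale that is logarithmic above 1, and the right panel the neutrophil label as a percent of annotated cells with its exact binomial 95% interval; Muscle S6 holds 86 neutrophil- and 3 granulocyte-labelled cells, and Joint S5 29 and 489.

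Whether the share of the label differed between CIA and healthy mice was tested over mice within each organ. In muscle, the share was 1.00% ± 1.64 (SD, n = 6) in CIA and 2.13% ± 2.46 (n = 4) in healthy mice, and the groups overlapped (two-sided exact permutation p = 0.486). In joint it was 1.06% ± 1.32 (n = 5) in CIA mice and 0 in the 3 healthy mice (exact permutation p = 0.286), in lung 0.638% ± 0.785 (n = 6) and 0 (exact permutation p = 0.3), and in spleen 0.233% ± 0.188 (n = 6) and 0 (exact permutation p = 0.105). After Benjamini-Hochberg adjustment over the 4 organs the values were 0.4 in joint, lung, and spleen and 0.486 in muscle, so no difference exceeded the spread between mice. The smallest p that these designs allow without ties is 0.0179 in joint and 0.00476 elsewhere. In joint, lung, and spleen, every sample with the label came from a CIA mouse, and the other samples tied at 0. With these values a higher share in CIA mice could give no smaller p than the observed one. None of 404 annotated cells of healthy joints, 351 of healthy lungs, and 1007 of healthy spleens had the label, which allows shares of up to 0.743%, 0.855%, and 0.298%. In skin, 0 of 791 cells of CIA mice and 0 of 376 of healthy mice had it, which allows up to 0.379% and 0.798%. The muscle difference changed sign with the denominator, and as a share of neutrophil- and granulocyte-labelled cells it was 39.4% ± 34.1 (n = 6) in CIA and 10.4% ± 12.1 (n = 4) in healthy mice (exact permutation p = 0.195).

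The cells carried the transcripts for which they were named. *S100a8* and *S100a9*, neighbours on chromosome 3 (GRCm38 chr3:90668978-90670035, plus strand, and chr3:90692632-90695721, minus strand), together took a median of 16.3% of the UMIs of a neutrophil-labelled cell (quartiles 9.30 and 22.2, highest 36.1), and 1 of the 170 cells had neither. The median was 19.9% in Muscle S6, 16.3% in Joint S5, 7.98% in Muscle H6, and 7.09% in Muscle H7. In T cells of the same libraries it was 0.852%, 1.99%, 0.394%, and 1.09%, and in granulocyte-labelled cells 24.9% (3 cells), 32.3%, 28.5%, and 27.3%. The neutrophil label thus lay between both other labels in each of the 4 libraries, and both CIA libraries lay above both healthy ones. This order has no test, as the CIA libraries come from different organs. The 20 cells outside the 4 libraries spanned 0 to 25.8%, with medians of 19.3% for 4 cells of joint, 15.0% for 7 of spleen, 11.3% for 6 of muscle, and 6.21% for 3 of lung.

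**Figure D2:**
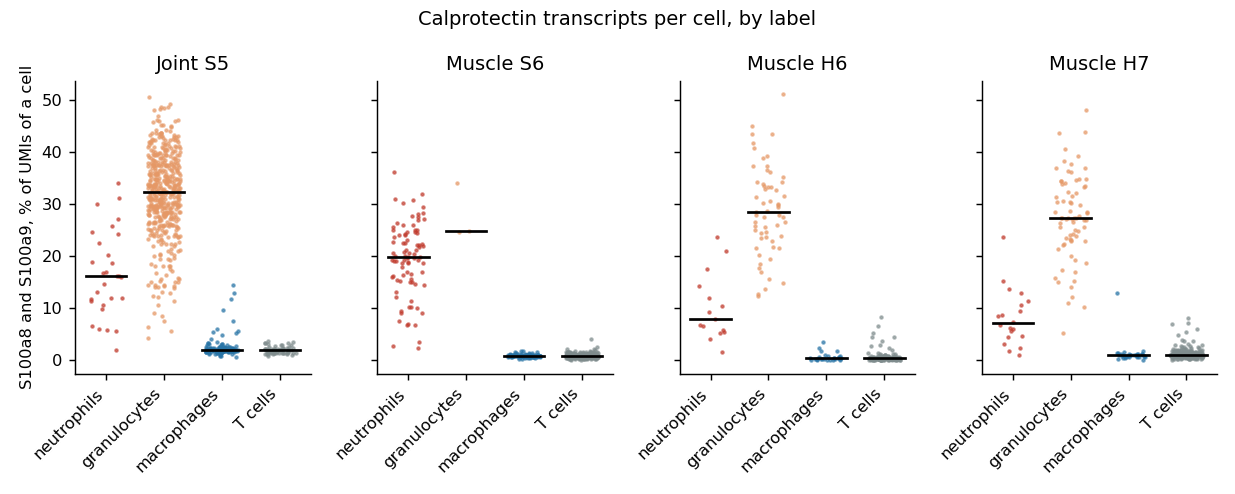
Percent of each cell's UMIs on *S100a8* and *S100a9*, by label, in the 4 libraries with at least 5 neutrophil-labelled cells. Points are cells and bars are medians; the neutrophil medians of 19.9%, 16.3%, 7.98%, and 7.09% lie below the granulocyte medians and above the T cell medians of the same library.

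To compare shares of cells with a transcript at equal depth, each cell of the 4 libraries was thinned to 400 UMIs, which left out no cell. At this depth, *Ly6g*, a surface protein used to sort mouse neutrophils, was found in 10.7% of 150 neutrophil-labelled cells (exact binomial interval 6.22 to 16.7), 13.9% of 624 granulocyte-labelled cells, and 0.485% of 618 T cells. *Ltf*, which encodes the iron-binding lactoferrin of specific granules, was found in 47.3%, 71.0%, and 4.53%, and *Mmp9*, the gelatinase B of gelatinase granules, in 8.00%, 8.33%, and 0.324%. *Cd14*, a co-receptor for lipopolysaccharide that macrophages share, was found in 27.3%, 39.3%, and 3.88%. Summed over the 4 libraries, these markers were thus above the level of T cells in both granulocytic labels. *S100a8* was found in 98.7%, 100%, and 87.2%, so its presence in a cell said little in these libraries, and only its amount told the labels apart. These shares pool unequal libraries, as Muscle S6 gave 86 of the 150 neutrophil-labelled cells and Joint S5 489 of the 624 granulocyte-labelled ones. Within libraries, *Ltf* was found in 12 of 29, 4 of 15, 7 of 20, and 48 of 86 neutrophil-labelled cells of Joint S5, Muscle H6, Muscle H7, and Muscle S6, and in 350 of 489, 44 of 59, and 47 of 73 granulocyte-labelled cells of the first 3. Without thinning, the neutrophil-labelled cells gave 24% for *Ly6g*, 59.3% for *Ltf*, and 43.3% for *Cd14*.

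Defining markers of macrophages, eosinophils, basophils, and mast cells were low, whereas those of lymphocytes were not. The macrophage genes *C1qa*, *C1qb*, *Adgre1*, and *Mrc1* had 0 UMIs in the neutrophil-labelled cells of the 4 libraries, and *C1qb* in 0 of 150 thinned cells allows a share of up to 2.00%. The 8 defining macrophage genes summed to 0 to 402 CPM, against 717 to 2657 CPM in macrophage-labelled cells. The 10 macrophage genes used in the study, with *Lyz2* the most abundant, summed to 10109 to 15069 CPM. In Muscle S6 this was above macrophage-labelled cells (15069 against 8991 CPM), and elsewhere below. The 5 monocyte genes of the study summed to 452, 257, and 402 CPM in Joint S5, Muscle H6, and Muscle H7. Granulocyte-labelled cells had 300, 110, and 265 CPM there, and macrophage-labelled cells 1647, 812, and 1238 CPM. Of 6 eosinophil genes only *Siglecf* and of 6 basophil and mast cell genes only *Cpa3* was seen, each at up to 10.9 CPM. The 5 primary granule and precursor genes (*Mpo*, *Elane*, *Prtn3*, *Ctsg*, and *Ms4a3*) are made in the promyelocyte. In neutrophil-labelled cells of Joint S5, Muscle H6, Muscle H7, and Muscle S6 they summed to 37.7, 85.7, 67.0, and 174 CPM. The first 3 values are 1 UMI each and so lie at the floor. Granulocyte-labelled cells of these 3 libraries had 357, 365, and 362 CPM. The 5 defining B cell genes stood higher, at 871 to 2561 CPM, against 1634 to 2617 CPM in T cells. Granulocyte-labelled cells of Joint S5, Muscle H6, and Muscle H7 had 107, 310, and 474 CPM. The 5 defining T cell genes summed to 37.7, 771, 603, and 359 CPM in neutrophil-labelled cells of Joint S5, Muscle H6, Muscle H7, and Muscle S6, against 40.5, 621, 456, and 1785 CPM in T cells and 185, 219, and 321 CPM in granulocyte-labelled cells of the first 3 libraries. In muscle of both healthy mice the sums of neutrophil-labelled cells were thus not below those of cells labelled T cells. They rest on few UMIs, out of 11673 in Muscle H6 and 14920 in Muscle H7, so the order of both labels is not resolved. Whether these are cells caught together or free RNA was not tested.

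The question of how both granulocytic labels differ was put to all genes. UMIs were summed over the cells of a label in a sample, and the sums of Joint S5, Muscle H6, and Muscle H7, the 3 samples with at least 5 cells of each label, were compared with edgeR's quasi-likelihood test with the sample as a block. Of 600 genes that passed the filter on low counts, 76 (12.7%) were higher and 66 (11%) lower in neutrophil-labelled cells at an adjusted p under 0.05, in all 23.7%. The labels were themselves drawn from the expression of these cells, so the p-values are no independent evidence that the labels differ. The test takes its estimate of spread in part from all genes together. A p-value thus does not measure how steady 1 gene was over the 3 samples. Without the sample as a block, 49 genes were higher and 53 lower. Without Joint S5, 29 genes were higher, and without Muscle H6, 41 were lower. The split also depended on the scaling. With plain library size in place of TMM factors, 163 genes were higher and 23 lower (87.6% higher, against 53.5%), and the median log2 fold change of all genes was 0.51 in place of -0.07.

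All 10 genes of the specific granule list were lower in neutrophil-labelled cells, with a median log2 fold change of -1.58, beside 66 of 600 genes lower (11%) and a median of -0.07 over all genes tested. *Camp* and *Ngp* of this list are granulocyte markers of the study and *Ltf* is one of its neutrophil markers. Their differences are thus not independent of the labels. *Camp*, the antimicrobial peptide cathelicidin, stood at 12052 CPM in neutrophil- and 30113 CPM in granulocyte-labelled cells of Joint S5, at 4969 and 31431 CPM in Muscle H6, and at 6568 and 26660 CPM in Muscle H7. The granulocyte level was nearly constant, and the neutrophil level was the one that varied. Its log2 fold change was -2.39 ± 0.31 (SE, n = 3 pairs, adjusted p = 4.6e-10 by edgeR's quasi-likelihood test). Here and below, the SE of an edgeR value was derived from the F statistic of its test and is not the spread over the pairs. *Ngp*, a cathelicidin-related neutrophilic granule protein, had 15027 and 29565 CPM in Joint S5, 7624 and 32892 CPM in Muscle H6, and 8847 and 28862 CPM in Muscle H7 (log2 fold change -2.0 ± 0.31). *Lcn2*, the siderophore-binding lipocalin, fell by 2.18, *Chil3*, a chitinase-like protein, by 2.23, and *Ltf* by 1.38 on the log2 scale. The subunits of the NADPH oxidase membrane complex, *Cybb* and *Cyba*, had log2 fold changes of -1.70 and -1.10. *Hp* (haptoglobin), *Pglyrp1* (a peptidoglycan recognition protein), and *Anxa1* (annexin A1, which limits leukocyte adhesion) completed the list at -1.43, -1.26, and -1.47. With plain library size, 10 of 10 genes remained below 0 (median -1.0, against 0.51 over all genes), and 7 passed the threshold. In GRCm38, *Camp* lies at chr9:109847379-109849617 (minus strand) and *Ltf* at chr9:111019271-111042767 (plus strand).

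*S100a8* and *S100a9*, which the study lists as markers of both granulocytic labels, followed the same direction. *S100a8* had 114831 CPM in neutrophil- and 220222 CPM in granulocyte-labelled cells of Joint S5, 69048 and 210684 CPM in Muscle H6, and 45174 and 190047 CPM in Muscle H7, without overlap of the groups. The log2 fold change was -1.96 ± 0.37 for *S100a8* and -1.76 ± 0.33 for *S100a9*. The fall of the specific granule list was thus not set apart from that of *S100a8*. Per 100 UMIs of *S100a8*, *Ltf* had 2.95, 2.85, and 4.30 UMIs in neutrophil-labelled cells of Joint S5, Muscle H6, and Muscle H7. Granulocyte-labelled cells had 2.55, 2.03, and 2.23. By this measure *Camp*, *Ngp*, and *Lcn2* were lower in neutrophil-labelled cells of Joint S5 and Muscle H6 and higher in Muscle H7. *Ly6g* had 414 and 416 CPM in Joint S5, 257 and 146 CPM in Muscle H6, and 134 and 334 CPM in Muscle H7, and the groups overlapped (log2 fold change -0.56 ± 0.48, adjusted p = 0.414 by edgeR's quasi-likelihood test). *Cd14* gave -0.40 ± 0.29 (adjusted p = 0.316 in the same edgeR fit). *Mmp9*, with 7 UMIs in the neutrophil-labelled cells of these 3 samples, did not pass the filter.

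The genes with the largest fall included transcripts of granulocyte precursors. *Fcnb* (ficolin B, a lectin stored in granules of immature neutrophils) had 37.7, 85.7, and 201 CPM in neutrophil-labelled cells of Joint S5, Muscle H6, and Muscle H7, and 752, 1205, and 1408 CPM in granulocyte-labelled cells. Its log2 fold change was -3.86 ± 0.49 (adjusted p = 2.5e-10 by edgeR's quasi-likelihood test), from 5 UMIs in neutrophil-labelled cells. *Cebpe*, the transcription factor that drives specific granule formation, was counted 3 times in neutrophil- and 198 times in granulocyte-labelled cells, a ratio of CPM of 0.185 (95% counting interval 0.0379 to 0.550). *Dhrs7*, a short-chain dehydrogenase, was counted 1 and 165 times (ratio 0.0742, interval 0.00187 to 0.419). *Lrg1*, *Lyz1* (a lysozyme), *Smc4* (a condensin subunit), *Prok2* (a secreted chemoattractant), and the unnamed *I830127L07Rik* had log2 fold changes between -3.08 and -2.14 on 4 to 7 UMIs each.

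Of the 14 genes of gelatinase granules and maturity, 5 could be tested, and all 5 had a log2 fold change below 0 (median -1.08, against -0.07 over all genes), 2 of them past the threshold, beside 11% of all genes lower. *Retnlg*, a resistin-like protein of mature mouse neutrophils, had 4971, 5825, and 4558 CPM in neutrophil-labelled cells of Joint S5, Muscle H6, and Muscle H7, against 6273, 2813, and 4585 CPM in granulocyte-labelled cells. The groups overlapped, and the log2 fold change was -0.22 ± 0.26 (adjusted p = 0.561 by edgeR's quasi-likelihood test). With plain library size the log2 fold change of *Retnlg* was 0.37. Per 100 UMIs of *S100a8*, *Retnlg* had 4.33, 8.44, and 10.1 UMIs in neutrophil-labelled cells of these samples. Granulocyte-labelled cells had 2.85, 1.33, and 2.41. *Wfdc21* (log2 fold change -2.12 ± 0.29) and *Msrb1* (-1.41 ± 0.37), a methionine sulfoxide reductase, were lower, and *Mmp8* (neutrophil collagenase, -1.08 ± 0.43), *Slpi* (a protease inhibitor, -0.77 ± 0.50), and *Retnlg* did not pass the threshold. *Cxcr2*, the receptor by which neutrophils leave the marrow, and *Csf3r*, the receptor of granulocyte colony-stimulating factor, were too low to test, at 0 to 301 CPM and 0 to 151 CPM in neutrophil-labelled cells.

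The counts of called genes in the other lists are to be read beside 12.7% of all genes higher and 11% lower, and with so few genes tested none of them sets a list apart. Of 8 migration and receptor genes tested, *Cd177*, a surface protein of specific granules, was lower (log2 fold change -1.54 ± 0.36), and 7 did not pass, with *Cxcr4*, which retains or returns neutrophils to the marrow, at 0.78 ± 0.45. Of 10 inflammatory activation genes tested, 0 passed with edgeR's quasi-likelihood test, 0 at an unadjusted p under 0.05, and 0 with DESeq2, and their median log2 fold change was -0.24. *Cxcl2*, a chemokine for neutrophils that neutrophils also make, had 3352, 2656, and 4357 CPM in neutrophil- and 3514, 1370, and 3554 CPM in granulocyte-labelled cells (log2 fold change -0.08 ± 0.26). *Il1r2*, the interleukin 1 decoy receptor, gave 0.78 ± 0.51. Of 9 immediate early genes tested, 0 passed, 0 at an unadjusted p under 0.05 and 0 with DESeq2 (median -0.30). *Ifitm3* (-1.01 ± 0.37), a membrane protein induced by interferon, was the 1 of 2 interferon response genes tested that was lower, a call lost in 11 of 15 alternatives. Of 3 cell cycle genes tested, *Hmgb2*, a chromatin protein abundant in dividing cells, was lower (-1.70).

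**Figure D3:**
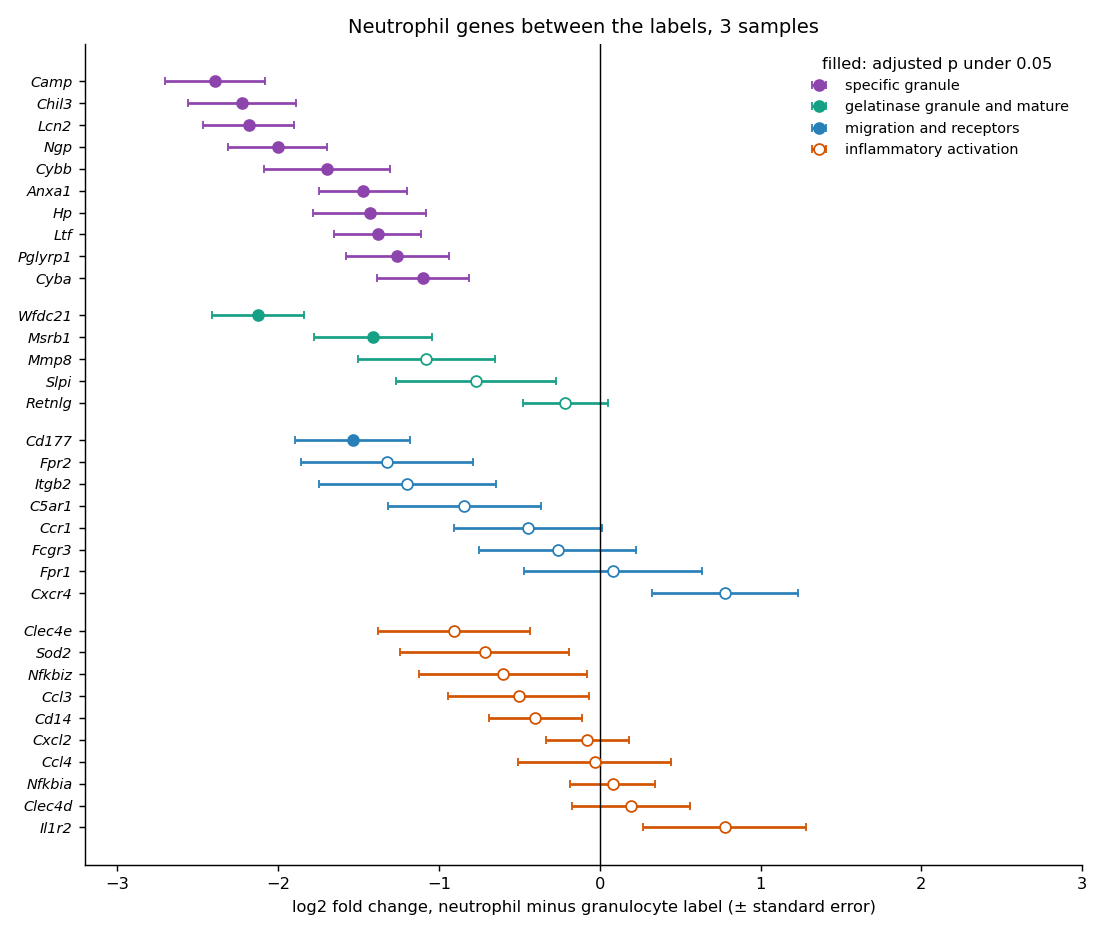
Log2 fold change of neutrophil- against granulocyte-labelled cells for the tested genes of 4 neutrophil lists, with bars of ± 1 standard error from the edgeR fit over 3 samples. Filled points have an adjusted p under 0.05; all 10 specific granule genes lie between -2.39 and -1.10, and none of the 10 inflammatory activation genes is filled.

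As *Ngp* and *Fcnb* fell together with *Cebpe* while *Retnlg* did not pass the threshold, the 250 bases before the start of these 3 genes are shown (RefSeq, GRCm38.p6, written 5′ to 3′ on the strand of the gene). Capitals mark matches to a motif of the C/EBP family, TTNNGNAA, on either strand, which on the other strand reads TTNCNNAA. The windows are chr9:110419558-110419807 (plus strand) for *Ngp*, chr2:28084879-28085128 (minus strand) for *Fcnb*, and chr16:48872358-48872607 (plus strand) for *Retnlg*.
Ngp: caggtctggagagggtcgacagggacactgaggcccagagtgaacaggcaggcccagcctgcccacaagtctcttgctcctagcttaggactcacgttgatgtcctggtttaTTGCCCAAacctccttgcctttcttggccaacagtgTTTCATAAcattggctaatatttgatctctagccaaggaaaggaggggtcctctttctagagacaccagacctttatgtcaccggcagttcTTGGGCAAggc
Fcnb: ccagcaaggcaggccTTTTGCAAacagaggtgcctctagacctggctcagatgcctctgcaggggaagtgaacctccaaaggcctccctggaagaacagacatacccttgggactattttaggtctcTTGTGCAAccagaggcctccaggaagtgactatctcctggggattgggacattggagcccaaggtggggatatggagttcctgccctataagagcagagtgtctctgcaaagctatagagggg
Retnlg: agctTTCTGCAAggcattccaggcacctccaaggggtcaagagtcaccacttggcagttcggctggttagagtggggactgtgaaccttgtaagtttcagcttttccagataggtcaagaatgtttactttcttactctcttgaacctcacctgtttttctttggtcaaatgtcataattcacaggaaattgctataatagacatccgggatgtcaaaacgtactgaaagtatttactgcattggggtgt
The *Ngp* window held 3 matches, which begin 138, 102, and 11 bases before the start, the *Fcnb* window 2, at 235 and 123 bases, and the *Retnlg* window 1, at 246 bases. Such matches are common, as 12104 of 32851 promoters of this length (36.8%) held at least 1. Of the 9 specific granule genes with a promoter in the table, 5 held a match (55.6%). The matches describe letters in these windows and say nothing of binding.

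Among the genes higher in neutrophil-labelled cells were those of antigen presentation and of immunoglobulin. *Cd74*, the invariant chain of MHC class II, had 1243, 6853, and 4021 CPM in neutrophil-labelled cells of Joint S5, Muscle H6, and Muscle H7, against 95.4, 475, and 1421 CPM in granulocyte-labelled cells (log2 fold change 2.49 ± 0.29, adjusted p = 5.1e-12 by edgeR's quasi-likelihood test). T cells of these libraries, which make little class II, had 446, 7341, and 6238 CPM, so in both muscle libraries the neutrophil level lay below that of T cells. The 3 class II genes tested (*Cd74*, *H2-Aa*, and *H2-Ab1*) and the 3 immunoglobulin genes tested (*Ighm*, *Igkc*, and *Iglc2*) were all higher, beside 12.7% of all genes. *Ighm*, the IgM heavy chain, had 1431, 2056, and 536 CPM in neutrophil-labelled cells, 72.5, 164, and 307 CPM in granulocyte-labelled cells, and 987, 762, and 1003 CPM in T cells. In thinned cells, *Cd79a*, part of the B cell receptor, was found in 3 of 29 neutrophil-labelled, 2 of 489 granulocyte-labelled, and 11 of 58 T cells of Joint S5. In Muscle H6 it was in 1 of 15, 1 of 59, and 16 of 144, and in Muscle H7 in 1 of 20, 0 of 73, and 15 of 180, so the muscle counts are too low to set the 2 granulocytic labels apart. How much of this RNA was free RNA or came from a second cell was not tested.

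Ribosomal protein genes also stood higher. Of 55 tested genes with a ribosomal protein symbol, 28 were higher and 0 lower (median log2 fold change 0.90), beside 12.7% of all genes higher and a median of -0.07, with *Rps2* at 339, 600, and 268 CPM in neutrophil- and 53.4, 91.3, and 69.7 CPM in granulocyte-labelled cells. With plain library size 47 of the 55 were higher, without Joint S5 8 of 51, with at least 3 cells of each label 6 of 55, and with DESeq2 11 of 55, and without the filter on low counts edgeR called 0 of 292. This group was formed after the values were seen, and 7 of the 55 symbols are pseudogenes, whose reads cannot be told apart from those of their parent genes. Single genes with the largest rise were *Tob2* (log2 fold change 3.28 ± 0.60), an antiproliferative protein, *Snx2* (3.12 ± 0.58), a sorting nexin, *Pim1* (2.25 ± 0.49), a survival kinase, *Hspe1* (2.22 ± 0.58), a mitochondrial chaperonin, *Nop58* (2.16 ± 0.57), a nucleolar protein, and *Zfp36l1* (2.12 ± 0.56), an mRNA decay factor. Each rested on 13 to 32 UMIs in neutrophil-labelled cells. *Pim1* had 753, 428, and 469 CPM in these cells, 118, 54.8, and 83.6 CPM in granulocyte-labelled cells, and 757, 708, and 758 CPM in T cells. In the joint its neutrophil level was thus near that of T cells.

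Haemoglobin genes stood higher in neutrophil-labelled cells as well. *Hba-a1* had 12843, 6596, and 44437 CPM in neutrophil-labelled cells of Joint S5, Muscle H6, and Muscle H7, against 5447, 1242, and 3205 CPM in granulocyte-labelled cells (log2 fold change 2.05 ± 0.32). When cells with over 5% haemoglobin UMIs were left out, a step added after the data were seen, its log2 fold change was -0.14, and all 3 haemoglobin genes lay below 0 (median -0.09). As the cells were left out by their haemoglobin, a smaller fold change of these genes was largely built into this step. The counts over all genes were then 68 higher and 52 lower, and all 10 specific granule genes were still lower.

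Neutrophil-labelled cells had fewer UMIs, more genes, and a higher mitochondrial percent in 3 of 3 samples. Over the 3 samples, the median cell of the neutrophil label had a log2 difference of -0.23 ± 0.23 (SD, n = 3) in UMIs and 0.19 ± 0.17 in genes from the median granulocyte-labelled cell, and 0.97 ± 0.21 in the percent of mitochondrial UMIs (exact sign-flip permutation p = 0.25 for each, the smallest that 3 samples allow). The mitochondrial medians were 5.52%, 3.70%, and 6.05% against 2.76%, 2.20%, and 2.71%. The part of this difference in the gene results was not tested.

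Since *Cd14* is among the markers of the label and macrophages carry it too, the neutrophil label was also compared with macrophage-labelled cells of the same 4 libraries. Of 610 genes tested, 74 (12.1%) were higher and 70 (11.5%) lower in neutrophil-labelled cells (edgeR's quasi-likelihood test), in all 23.6%. Without the sample as a block the counts were 42 and 28, without Muscle S6 36 genes were higher and 35 lower, and without Joint S5 41 were higher and 30 lower. Both comparisons share the neutrophil-labelled cells of 3 samples, so they are not independent. Here too the labels were drawn from the expression of these cells, so the p-values are no independent evidence that the labels differ. Their estimate of spread again comes in part from all genes together. *Ltf*, *Ly6g*, *S100a8*, and *S100a9* are neutrophil markers of the study, and *F13a1*, *Ctss*, and *Cd68* are macrophage markers of it. Their differences are not independent of the labels.

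Granule genes set the neutrophil label apart from macrophages. Of the specific granule list, 8 of 10 genes were higher (median log2 fold change 2.5, against -0.18 over all genes), with *Ngp* at 3.44 ± 0.44, *Ltf* at 3.44 ± 0.41, and *Pglyrp1* at 3.29 ± 0.48. The oxidase genes *Cybb* and *Cyba*, which macrophages also express, gave 0.59 ± 0.45 and 0.54 ± 0.32 and did not pass. *Retnlg* had 4971, 5825, 4558, and 4066 CPM in neutrophil-labelled cells of Joint S5, Muscle H6, Muscle H7, and Muscle S6, and 888, 430, 272, and 351 CPM in macrophage-labelled cells, a steady level over the 4 libraries (log2 fold change 3.62 ± 0.34, adjusted p = 1.3e-11 by edgeR's quasi-likelihood test). *Ly6g* gave 3.62 ± 0.70 and *Wfdc21* 3.8 ± 0.42. *G0s2*, a regulator of lipolysis, had 1958, 343, 603, and 1044 CPM against 83.5, 0, 242, and 18.0 CPM and the largest rise among genes of the same sign in all pairs (4.27 ± 0.47). *Hcar2* (a niacin receptor, 3.74 ± 0.46), *Trem3* (3.56 ± 0.54) and *Cd300lf* (3.52 ± 0.76), both receptors of myeloid cells, followed. *Hba-a1* (3.29 ± 0.51) and the other 2 haemoglobin genes tested were higher too.

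Of 4 migration and receptor genes tested against macrophages, 2 were higher, beside 12.1% of all genes. *C5ar1*, the receptor of the complement fragment C5a, had a log2 fold change of 3.41 ± 0.69 and *Cd177* of 2.88 ± 0.52, whereas *Cxcr4* (0.79 ± 0.42) and *Ccr1*, a chemokine receptor (0.46 ± 0.44), did not pass. Of 6 inflammatory activation genes tested, 3 were higher, namely *Il1r2* (3.11 ± 0.59), *Cxcl2* (1.27 ± 0.29), and the lectin *Clec4d* (1.09 ± 0.37, a call lost in 5 of 9 alternatives). *Nfkbia*, an inhibitor of NF-κB (0.69 ± 0.29), *Clec4e*, another lectin (1.35 ± 0.53), and *Cd14* did not pass. Of 6 gelatinase and maturity genes tested, 4 were higher (*Retnlg*, *Wfdc21*, *Mmp8* at 2.89 ± 0.64, and *Msrb1* at 1.25 ± 0.42, the last lost in 5 of 9 alternatives). *Slpi* was lower (-1.25 ± 0.42), in 3 of 4 libraries and with the call lost in 5 of 8 alternatives, and *Ccl6*, a chemokine, did not pass (-0.75 ± 0.48). *Cd14* had 1657, 1114, 603, and 761 CPM in neutrophil- and 1192, 669, 2536, and 568 CPM in macrophage-labelled cells (0.23 ± 0.33, adjusted p = 0.628 by edgeR's quasi-likelihood test), so it did not tell these labels apart. *S100a8* was higher by 3.23 ± 0.60 on the log2 scale.

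Of the 10 macrophage genes used in the study, 6 could be tested, of which 3 were lower (*F13a1*, *Ctss*, and *Cd68*), beside 11.5% of all genes, *Cxcl2* was higher, and *Cd14* and *Lyz2*, a lysozyme (-0.52 ± 0.42), did not pass. *F13a1*, the coagulation factor XIII A subunit, had 0 UMIs in neutrophil- and 123 in macrophage-labelled cells, at least 20.0-fold lower against a floor of 3 UMIs over the group. *Ccl2*, a monocyte chemoattractant, was counted 3 and 181 times (ratio 0.0339, 95% counting interval 0.00693 to 0.101). *Ctss* (cathepsin S, log2 fold change -3.12 ± 0.41), *Apoe* (a lipid carrier, -1.86 ± 0.45), and *Cd68* (a lysosomal protein, -1.91 ± 0.68) were lower, as were *S100a4* (-3.49 ± 0.43), a calcium-binding protein of another branch of the S100 family, and *Irf8* (-2.55 ± 0.64), a transcription factor of monocytes. The other genes of the 12 with the largest fall were *Ifi202b*, *Emp1*, *Crip1*, *Rnh1*, *Fnip2*, *Esd*, and *Tmem256*, between -3.36 and -2.42. Of the 470 genes tested in both comparisons, 25 were lower than in granulocytes and higher than in macrophages, among them *Camp*, *Ngp*, *Ltf*, *Lcn2*, *S100a8*, *S100a9*, *Cd177*, and *Trem3*.

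**Figure D4:**
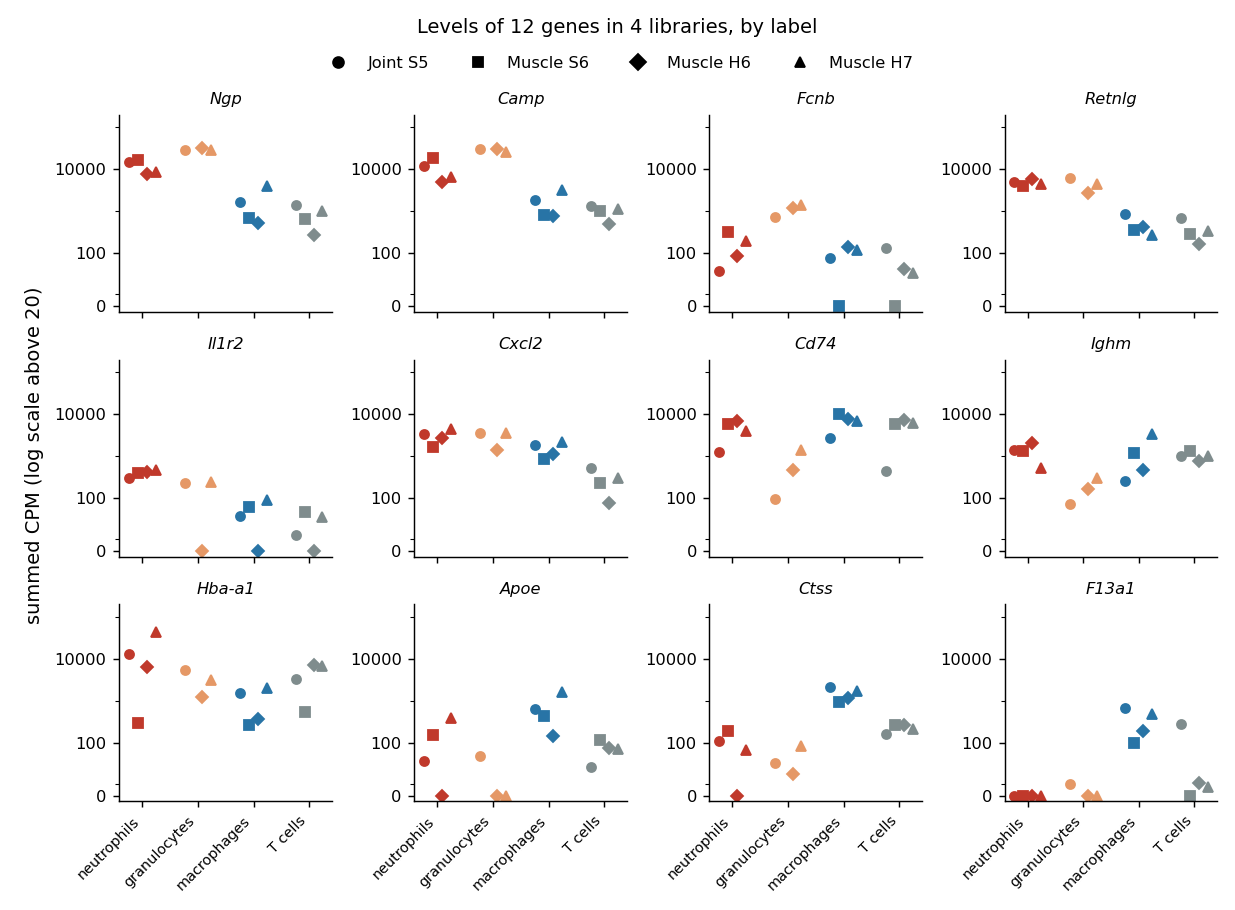
Level of 12 genes in CPM of summed UMIs (scale logarithmic above 20) by label, with 1 symbol for each of the 4 libraries; the 3 granulocyte-labelled cells of Muscle S6 are left out. *Camp* and *Ngp* are lower in the neutrophil than in the granulocyte label, and *Retnlg* overlaps between them while both lie above macrophages.

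Muscle held the label in both conditions, so muscle of CIA mouse S6 (86 cells) was set against muscle of healthy mice H6 and H7 (35 cells). With 1 CIA mouse of at least 5 cells there is no replicate check and no test, and all values describe these libraries. Of 807 genes with at least 20 UMIs in both sums together, 136 (16.9%) had a log2 ratio over 1 and 83 (10.3%) one under -1, in all 27.1%. Of the specific granule list, 6 of 10 genes had a ratio over 1 and 0 one under -1 (median 1.03, against 0.17 over all genes). The list summed to 47882 CPM in S6 and to 20046 and 21649 CPM in H6 and H7. Granulocyte-labelled cells of H6 and H7 had 82093 and 72022 CPM. The neutrophil label took 96.6% of cells with either granulocytic label in S6, but 20.3% in H6 and 21.5% in H7. Where the border between both labels fell thus cannot be told apart from the condition. *Camp* had 18407 CPM in S6 against 4969 and 6568 CPM in H6 and H7, *Ngp* 16624 against 7624 and 8847 CPM, and *S100a8* 132056 against 69048 and 45174 CPM. *Fcnb* had 326 CPM in S6 against 85.7 and 201 CPM, where both healthy values lie near the floor. Neutrophil-labelled cells of Joint S5, Muscle H6, and Muscle H7 together held 5 UMIs of it. *Retnlg* went the other way, at 4066 CPM in S6 against 5825 and 4558 CPM.

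The largest ratios in this pair of sums were shared by the T cells of the same libraries. *Ifi27l2a*, induced by interferon, had 761 CPM in S6 against 0 and 134 CPM (ratio 10.1, 95% counting interval 2.70 to 85.2), and in T cells the ratio was 6.79. *Cd79b*, of the B cell receptor, had a ratio of 6.94 (2.28 to 34.4) and 2.41 in T cells, and *Ighg1*, the IgG1 heavy chain, was at least 4.92-fold higher against 0 UMIs in healthy mice (floor of 3 UMIs over the group) and 36.1-fold higher in T cells. *Hp* was 5.69-fold, *Ifitm3* 4.51-fold, and *Plac8* 4.10-fold higher. The other 6 of the 12 highest rest on 2 or 3 UMIs in the healthy cells, namely *Crem* (ratio 8.82, interval 2.34 to 74.5), *I830127L07Rik* (8.10, 2.14 to 68.5), *Lrg1* (6.22, 1.62 to 53.0), *Dstn* and *C5ar1* (each 3.86, 1.23 to 19.5), and *Ndufa6* (3.66, 1.16 to 18.5). The 12 lowest comprised 3 haemoglobin genes, with *Hba-a1* at 294 CPM in S6 against 6596 and 44437 CPM, and 9 transcripts of which 7 have a predicted-gene symbol (*Gm15427*, *Gm10076*, *Gm5805*, *Gm14094*, *Gm10269*, *Gm12901*, and *Gm8420*), beside *Wdr89* and *Mir692-1*. All 24 of these genes had a ratio of the same sign in T cells of the same libraries, with sums under 3 UMIs set to 3. For *Hp* and *Camp*, however, the T cell log2 ratios were 0.36 and 0.20, against 2.51 and 1.65 in neutrophil-labelled cells. *C5ar1* had 9.15 CPM in T cells of S6 and 0 and 7.02 CPM in those of H6 and H7. Both T cell sums lay under the floor of 3 UMIs, so the T cell ratio of *C5ar1* and its sign reflect library size only. The library and the condition cannot be told apart here.

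**Figure D5:**
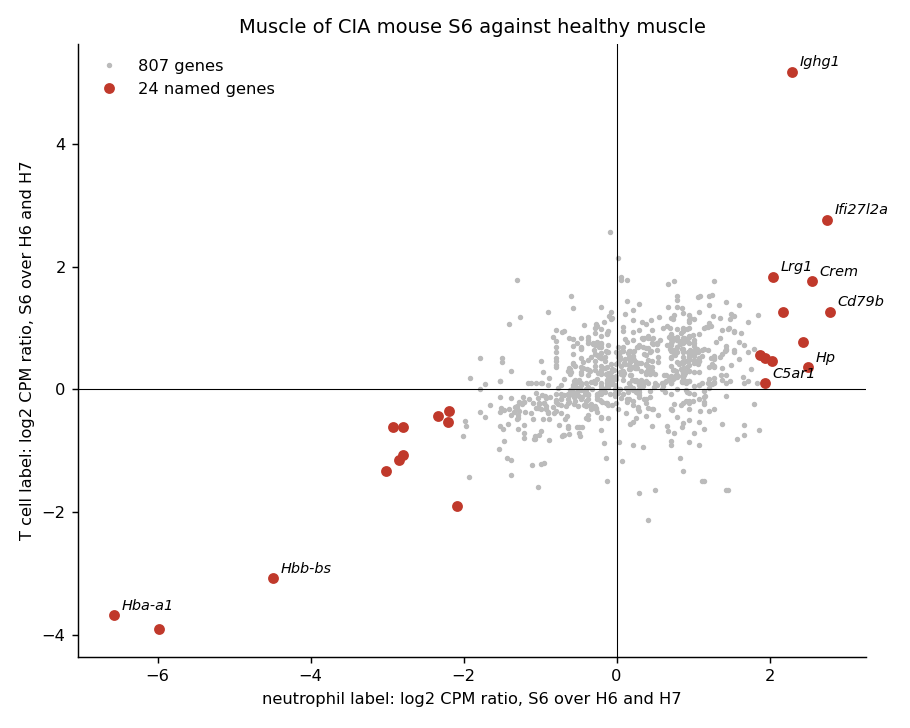
Log2 ratio of summed CPM in muscle of S6 over muscle of H6 and H7, for neutrophil-labelled cells (horizontal) and T cells (vertical). The 807 genes are in grey and the 24 named genes in red. Sums under 3 UMIs are drawn at the floor of 3 UMIs. All 24 named genes have the same sign on both axes, for *C5ar1* set by the floor on the T cell axis.

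Whether the difference from granulocytes itself differed between joint and muscle could not be fitted with at least 5 cells of each label, as only 1 joint sample qualified. With at least 3 cells of each label (2 joint and 4 muscle samples), edgeR's quasi-likelihood test of the interaction called 0 of 457 genes, and 8 had an unadjusted p under 0.05. Joint samples were all from CIA mice and muscle samples from both groups, so organ and condition cannot be told apart in this test.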

How the data were processed

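The deposited table gave raw UMI counts per cell, which the authors had made with Drop-seq tools and STAR on GRCm38, whereas the labels name other builds as well. Cell types were the deposited ones, which the authors assigned from denoised expression of the same cells. Of the table, 34586 genes and 13240 cells were read, and no doublet caller was run. Counts were summed over the cells of a label in a sample with at least 5 cells and tested with edgeR 4.0.16 (R 4.3.3; quasi-likelihood, TMM, filterByExpr, sample as block, Benjamini-Hochberg threshold 0.05) or, as an alternative, DESeq2 1.42.0. Both labels of a sample come from 1 animal and library; their deviations correlated at 0.501, 0.298, and 0.101 (granulocytes) and 0.156 to 0.397 (macrophages) across genes. Shares were compared over mice by exact permutation (scipy 1.17.1, Python 3.11.15). Named genes were the 12 largest called changes per direction with the same sign in all samples, called members of 7 neutrophil lists, and 6 label markers; others were named after their values were seen. Members and lists were chosen with earlier results of these data known. Scripts were tested on simulated data. Gene coordinates are from GENCODE vM21. All values of 1 sample come from 1 mouse. The p-values of edgeR rest on a spread between samples that is estimated in part from all genes together. Alternatives covered scaling, filters, the block, thinning, minimum cells, denominators, and leaving out each sample.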

Additional observations from a re-analysis of the deposited data

Results flagged for a closer look

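The share of neutrophil-labelled cells in muscle of S6, 4.32% of annotated cells, stood apart as the highest of the 6 CIA muscle samples. The other 5 CIA muscle samples together averaged 0.335% ± 0.214 (SD, n = 5). Without S6 the difference in muscle between CIA and healthy mice was -1.79 percentage points (two-sided exact permutation p = 0.190). By Dixon's criterion, 1 of 5 groups examined was singled out, and chance singles out about 1 in 20 groups.

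The 59 cells of Joint S5 that carry no cell type had a median of 22.4% of their UMIs on *S100a8* and *S100a9*, above the neutrophil-labelled median of 16.3% in that library. At or above the median of the 170 neutrophil-labelled cells were 37 of the 59. Cells without a cell type in healthy joints had medians of 0.243% (H3, 15 cells) and 0% (H4, 9 cells). These cells were in no comparison, and counts per library of the neutrophil label leave them out.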

How the results depend on the processing

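Of the single genes named, 750 values over all alternatives kept direction and side of the threshold, 79 lost the threshold, 1 gained it (*Cd14* against granulocytes, no filter on low counts), and 1 reversed (*Hba-a1*, -0.14 without cells of over 5% haemoglobin UMIs, chosen after seeing the data). That step removes cells by the transcripts of this gene. Of the main values, 104 stayed close, 31 moved, and 3 reversed. Against granulocytes, genes higher and lower numbered 49 and 53 without the replicate block, 23 and 30 by DESeq2, 10 and 175 without the filter, 163 and 23 with plain library size, 25 and 46 with at least 3 cells, 29 and 44 in muscle alone, 15 and 15 in muscle with at least 3 cells, and 36 and 33 after thinning to 400 UMIs. Leaving out 1 sample gave 29 (without Joint S5) to 69 higher and 41 (without Muscle H6) to 45 lower. Against macrophages, the counts were 42 and 28 without the replicate block and 63 and 31 by DESeq2, and leaving out 1 sample gave 36 (without Muscle S6) to 99 higher and 30 (without Joint S5) to 75 lower. The specific granule list had 5 to 10 of 10 genes lower than in granulocytes, and none above 0, in every alternative. The muscle difference between CIA and healthy mice became positive as a share of both granulocytic labels (29.0 percentage points), of labels of blood origin (1.57), and as cells (6.58). Without thinning, cells with a UMI rose to 100% (*S100a8*), 24% (*Ly6g*), 59.3% (*Ltf*), and 43.3% (*Cd14*) in neutrophil- and 29.5% (*Ly6g*), 17.5% (*Mmp9*), 81.7% (*Ltf*), and 60.3% (*Cd14*) in granulocyte-labelled cells, and without Muscle S6 *Ltf* was in 35.9% of neutrophil-labelled cells. The cause of these changes was not tested. The comparison within joint alone could not be fitted, and leaving out samples of the interaction was not run. Depth limits the comparisons, since 64 cells and about 600 genes carry the one with granulocytes.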

Other observations

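Over all samples, 117 of 1144 cells without a cell type had at least as large a share of UMIs on *S100a8* and *S100a9* as the median neutrophil-labelled cell. Their median was 24.8% in Joint S8 (7 cells), 7.67% in Joint S1 (66 cells), and 3.16% in Spleen S2.

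Other labels held these transcripts in some libraries. Cells labelled dendritic cells had medians of 16.3% in Muscle S3 (6 cells), 15.3% in Joint S1 (5 cells), 11.2% in Spleen S2 (218 cells), and 8.75% in Spleen S1 (73 cells), and endothelial cells of Joint S5 had 8.76% (76 cells). Muscle of healthy mouse H4 held 47 granulocyte-labelled cells and 0 neutrophil-labelled ones. Primary granule genes summed to 4623 CPM in the cells of Joint S5 labelled T cells, against 37.7 CPM (1 UMI) in the neutrophil-labelled cells of that library.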
